A study of Homo sapiens with 208 samples.

Results

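STAT3, the kinase JAK1, the cytokine receptor chains IL6ST, IL6R and OSMR, the feedback inhibitors SOCS1, SOCS2, SOCS3 and CISH, and BCL3 were followed over 24 h in lung cancer cells given gefitinib, EGF or both. The genes were chosen by name, as the route from cytokines of the interleukin 6 family to STAT3 together with feedback inhibitors of STAT signaling. The rule uses no measured value, although earlier results of these data were known when the genes were listed. They were 10 of 16961 genes with a named probe on the array. All 10 passed the filter on dim signals together with 13263 genes in all, and 18 probes measured them.

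The arrays compared PC9, a lung adenocarcinoma line whose EGFR carries an activating deletion and which gefitinib inhibits, with a gefitinib-resistant line derived from it. The labels call the resistant line PC9GRM2 and the study calls it PC9M2, the name used here. It is 1 line, isolated from PC9 clones that survived gefitinib, and the study states that it lacked amplification of MET and the secondary EGFR mutation that was tested for. Cells of both lines were starved for 48 h and then received no treatment, 0.5 μM gefitinib, which blocks the EGFR kinase, 100 ng/ml EGF, the ligand of that receptor, or EGF together with gefitinib. Each of these 8 courses held 26 arrays, at 0 h, 0.5 h and every hour from 1 h to 24 h, which gave 208 arrays. In the study's scheme gefitinib was present before the 0 h harvest and EGF was added at 0 h, so arrays labelled gefitinib at 0 h were already exposed. No time point had a replicate array. Matched time points therefore stood in for replicates, and the errors below measure the spread between time points, which may be technical and may include cultures in common.

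Cytokines of the interleukin 6 family bind receptor complexes that contain IL6ST, also called gp130, paired with a ligand-specific chain such as IL6R or OSMR. Kinases of the JAK family, JAK1 among them, then phosphorylate STAT3, which moves to the nucleus and activates transcription. SOCS proteins and CISH are made in response to STAT signaling and act back on it, by inhibiting JAK kinases, by competing for docking sites on receptors or by marking partners for degradation. In epithelial tumor cells EGFR can also feed into STAT3, and ERK signaling downstream of EGFR controls some of the same feedback genes. BCL3 is an atypical member of the IκB family that acts in the nucleus with NF-κB subunits and is itself a known STAT3 target.

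Of the 208 arrays, 206 followed their labels in a score over 500 genes that gefitinib moved most at the other time points of the same line. The other 2 were the PC9M2 arrays of 0.5 h labelled EGF, with a score of 0.26 where the label calls for a negative one, and labelled EGF and gefitinib, with a score of -0.29 where it calls for a positive one. At these 2 arrays SOCS1 was at 6.63 in the array labelled EGF and at 10.41 in the array labelled EGF and gefitinib, the reverse of the order at 0 h and at 1 h. The labels were kept, and results that rest on these arrays are also given without them where a call, a count or a direction changes. The untreated PC9M2 array of 11 h stood farthest from its neighbours in time, at 3.96 times the usual distance in its course, and calls and counts that change without it are given too. A slide carried the 4 arrays of a line that belonged to the same hour. The lines shared none of their slides or scan days, so that a difference between lines cannot be told apart from a difference between slides or scan days. The number of features well above background ran from 24464 to 35938 among the arrays, and no probe of the 10 genes was saturated. Over the whole array, 183 to 1616 features were saturated on each PC9 array and 0 on every PC9M2 array. The scans thus differed between the lines, and the part of this in the differences between lines was not tested. The epithelial markers EPCAM, CDH1, KRT7, KRT8, KRT18 and KRT19 were well above background on all 208 arrays. Of the lung markers NAPSA was so on all but 1 PC9 array, SFTPB on 46 and NKX2-1 on 9, and in PC9M2 on all arrays, on 43 and on 4. PTPRC, the common leukocyte marker, was so on 1 PC9 array and on 0 PC9M2 arrays, and COL1A2, a fibroblast marker, on 5 and 4, whereas the probes of CD14, PECAM1 and VWF were above background on at least 102 arrays of either line.

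The promoter of CISH is shown because CISH was the member whose response to gefitinib differed most between the lines, and because its promoter was the only one of the 9 available that held the classical STAT motif. The sequence is that of RefSeq on GRCh38.p14, on the minus strand at chr3:50611775-50612024, 250 bases up to the start of the gene, and capitals mark the motif TTCNNNGAA, which reads the same on both strands.
CISH promoter: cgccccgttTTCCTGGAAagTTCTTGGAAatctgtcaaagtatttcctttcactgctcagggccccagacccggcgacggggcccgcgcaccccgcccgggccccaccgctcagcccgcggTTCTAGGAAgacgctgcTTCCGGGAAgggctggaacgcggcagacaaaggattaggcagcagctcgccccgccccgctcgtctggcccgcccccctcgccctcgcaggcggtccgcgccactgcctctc
The 4 matches lie in 2 pairs, at 241 and 230 bases and at 129 and 112 bases before the start. At least 1 match was present in 6.57% of 35116 promoter windows of this length, and 4 or more were present in 5 windows, or 0.0142%. No match was found in these windows of STAT3, JAK1, IL6ST, IL6R, OSMR, SOCS1, SOCS3 or BCL3, which says only that these letters are not in these 250 bases. JAK1 and SOCS3 had more than 1 window, at different starts. Of the other motifs searched on both strands, the ETS motif CCGGAAGT, present in 3.42% of windows, matched only JAK1. The match was in the window at chr1:65067747-65067996, 62 bases before that start, and the other JAK1 windows held none. The AP-1 motif TGANTCA, present in 6.57%, and the CRE motif TGACGTCA, present in 1.65%, matched none of the 9.

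Gefitinib lowered the feedback inhibitors SOCS1, SOCS2 and SOCS3 and the receptor chain OSMR at every time point in both lines. Averaged over time points it raised BCL3 and JAK1 in both lines, calls that did not hold in every setting. BCL3 was lower with gefitinib at 4 of 6 early time points in PC9 and at 3 of 6 in PC9M2. In PC9 cells 2 members were called higher and 5 lower by limma's paired test over 26 time points, where 35.1% of the 13263 genes tested were higher and 37.2% were lower. In PC9M2 cells 3 members were called higher and 5 lower, where 32.6% and 34.2% of genes were. Calls were frequent across the array, and the size of a change says more than the call. The median size of the change over the 10 genes was 0.58 on the log2 scale in PC9 and 0.95 in PC9M2, and over all genes 0.44 and 0.32. In bulk samples such as these, fewer cells of a kind and less RNA per cell cannot be told apart.

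**Figure D1:**
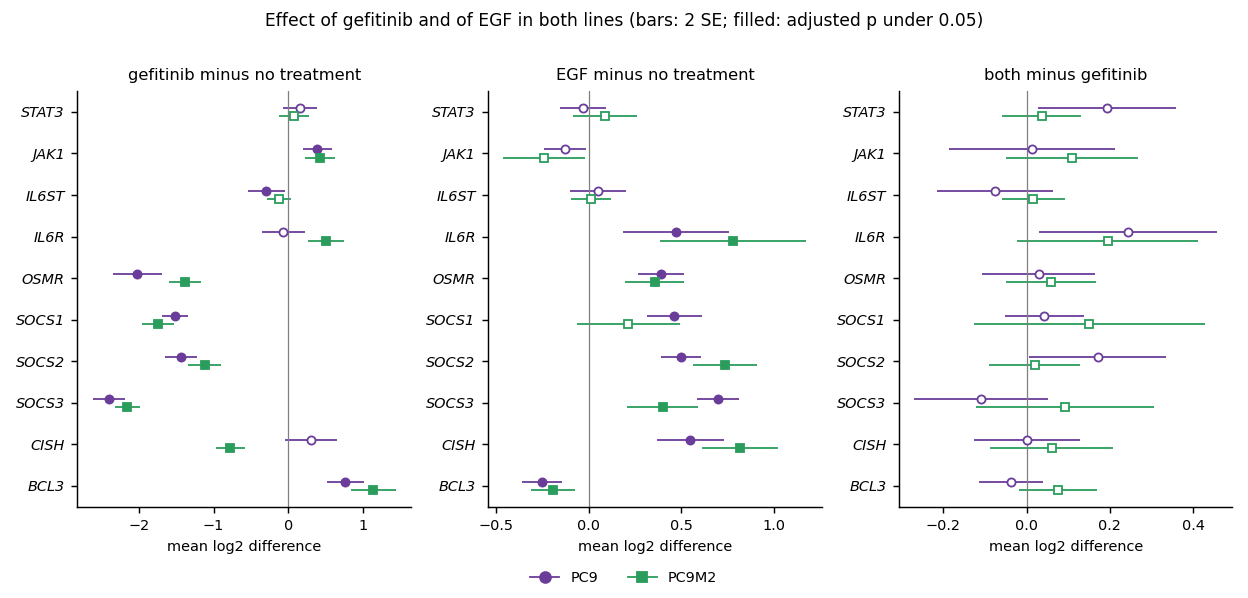
Mean log2 difference over matched time points for the 10 genes in PC9 (circles) and PC9M2 (squares), with bars of 2 standard errors, for gefitinib against no treatment, EGF against no treatment and both agents against gefitinib alone. Filled symbols passed an adjusted p of 0.05. The points of OSMR, SOCS1, SOCS2 and SOCS3 lie left of 0 under gefitinib and, except SOCS1 in PC9M2, are filled right of 0 under EGF alone, and no point is filled in the last panel.

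SOCS3, which binds gp130 and blocks the JAK kinases attached to it, fell most. On the scale of log2 intensity, untreated PC9 cells lay between 8.53 and 11.28 with a median of 10.07, and gefitinib-treated PC9 cells between 6.75 and 8.67 with a median of 7.61. Untreated PC9M2 cells lay between 9.74 and 11.32 with a median of 10.69, and gefitinib-treated PC9M2 cells between 8.00 and 8.90 with a median of 8.53. The ranges of the untreated and the gefitinib-treated course did not overlap in PC9M2, which held for no other member there and for 0.837% of genes. In PC9 they overlapped slightly, because SOCS3 started low in untreated cells, and none of the 10 genes had separate ranges there, as 1.58% of genes did. The mean difference was -2.41 (SE 0.11, 5.30-fold lower, limma adjusted p = 7.54e-17) in PC9 and -2.16 (SE 0.083, 4.47-fold lower, adjusted p = 5.6e-18) in PC9M2, with gefitinib lower at 26 of 26 time points in both. A second, dimmer SOCS3 probe gave -1.43 and -1.19.

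SOCS1, a direct inhibitor of JAK kinase activity, separated the treatments already at 0 h. Its log2 intensity ranged from 9.22 to 11.12 with a median of 10.23 in untreated PC9 cells and from 7.32 to 9.42 with a median of 8.77 under gefitinib. In PC9M2 the untreated cells ranged from 8.12 to 10.15 with a median of 9.14 and the gefitinib-treated cells from 6.38 to 8.19 with a median of 7.47. Only the ends of these ranges touched. The difference was -1.52 (SE 0.089, 2.86-fold lower, limma adjusted p = 1.89e-14) in PC9 and -1.75 (SE 0.11, 3.36-fold lower, adjusted p = 7.04e-14) in PC9M2. A second SOCS1 probe also fell in both lines, by 1.36 in PC9 and by 0.90 in PC9M2.

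SOCS2, best known as a brake on growth hormone signaling, fell by less. Untreated PC9 cells lay between 7.67 and 8.67 with a median of 8.03 and gefitinib-treated PC9 cells between 4.92 and 7.77 with a median of 6.60. Untreated PC9M2 cells lay between 6.17 and 7.84 with a median of 6.92 and gefitinib-treated PC9M2 cells between 4.90 and 7.54 with a median of 5.74. The ranges overlapped more in PC9M2, where the first hours differed little. The mean difference was -1.44 (SE 0.11, 2.71-fold lower, limma adjusted p = 2.47e-12) in PC9 and -1.12 (SE 0.11, 2.18-fold lower, adjusted p = 5.85e-10) in PC9M2.

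**Figure D2:**
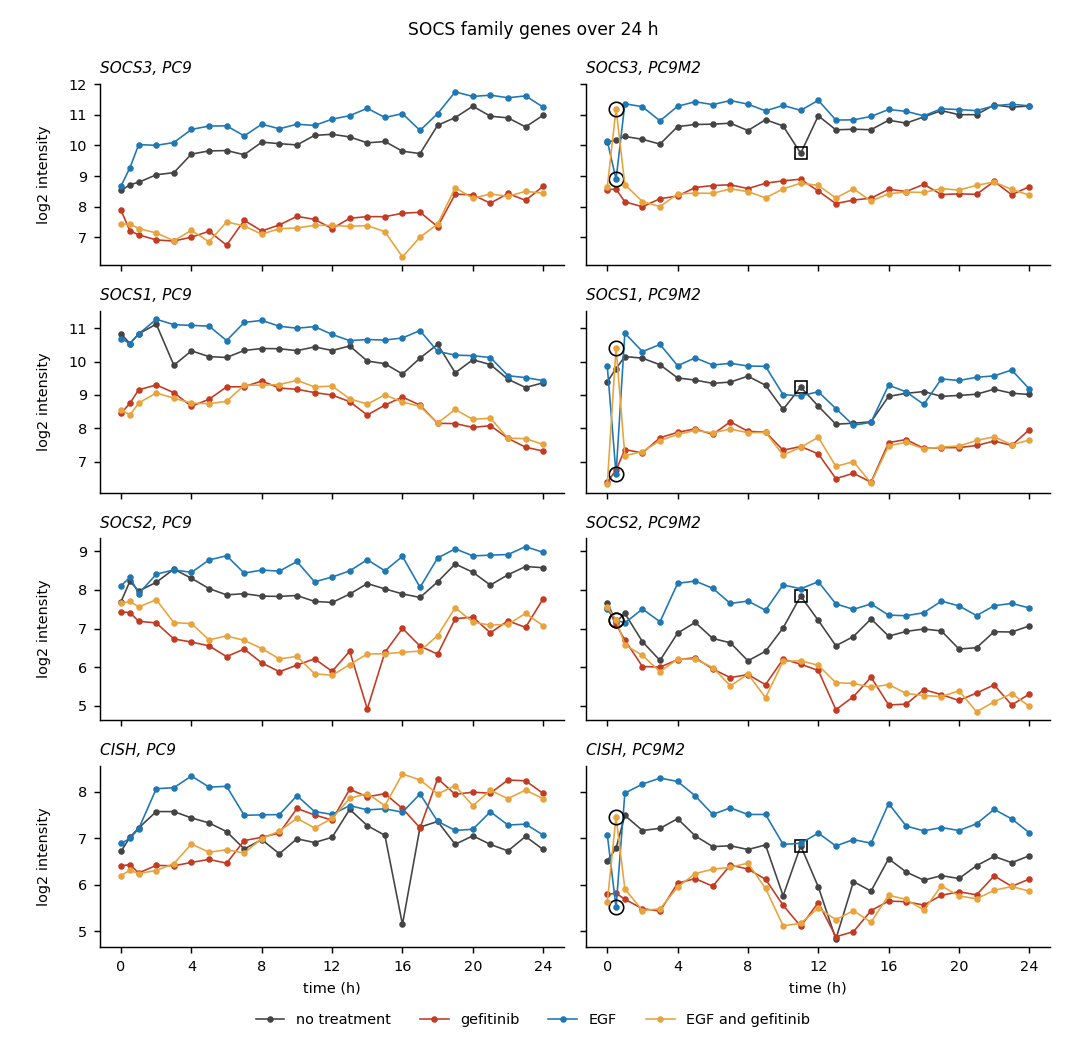
Log2 intensity of SOCS3, SOCS1, SOCS2 and CISH against time in hours, with 1 point per array and 1 colour per treatment, PC9 on the left and PC9M2 on the right. Circles mark the 2 PC9M2 arrays of 0.5 h that went against their labels and the square marks the untreated PC9M2 array of 11 h. The courses with gefitinib, alone or with EGF, run below the others for SOCS3 and SOCS1, and for CISH in PC9 they cross from below to above.

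CISH, which competes with STAT factors for receptor docking sites, responded differently in the 2 lines. In PC9 the untreated course ranged from 5.15 to 7.62 with a median of 7.03 and the gefitinib course from 6.25 to 8.27 with a median of 7.44. In PC9M2 the untreated course ranged from 4.84 to 7.49 with a median of 6.58 and the gefitinib course from 4.89 to 6.42 with a median of 5.78. The courses overlapped in both lines. Over all time points the difference in PC9 was 0.31 (SE 0.17, 95% interval -0.049 to 0.67, limma adjusted p = 0.112), higher at 17 of 26 time points, whereas in PC9M2 CISH was lower at 25 of 26 time points by 0.78 (SE 0.099, 1.71-fold, adjusted p = 7.57e-08). The difference between the lines in this response was -1.09 (SE 0.15, adjusted p = 1.46e-06), with the same sign at 26 of 26 time points. A second, dimmer CISH probe moved less, by 0.031 in PC9 and by -0.34 in PC9M2, with a difference between the lines of -0.37.

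OSMR, the chain that pairs with gp130 to bind oncostatin M, was the receptor chain that changed most. Untreated PC9 cells ranged from 6.81 to 9.69 with a median of 8.94 and gefitinib-treated PC9 cells from 5.17 to 9.04 with a median of 6.71. Untreated PC9M2 cells ranged from 5.13 to 8.09 with a median of 7.07 and gefitinib-treated PC9M2 cells from 4.68 to 6.80 with a median of 5.64. These ranges overlapped, since in both lines the courses began closer together and moved apart. OSMR fell by 2.02 (SE 0.16, 4.06-fold, limma adjusted p = 1.04e-11) in PC9 and by 1.38 (SE 0.11, 2.61-fold, adjusted p = 8.73e-12) in PC9M2. The fall in PC9M2 was smaller by 0.64 (SE 0.13, adjusted p = 0.00026).

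The other receptor chains, the kinase and STAT3 itself changed less. IL6ST, the shared signaling chain, fell in PC9 by 0.29 (SE 0.12, limma adjusted p = 0.035), lower at 18 of 26 time points, a call that was lost when arrays were scaled to their 75th percentile (-0.19, adjusted p = 0.171). In PC9M2 its difference was -0.12 (95% interval -0.29 to 0.041). IL6R, the chain that binds interleukin 6, differed by -0.069 in PC9 (95% interval -0.37 to 0.23) and rose in PC9M2 by 0.51 (SE 0.12, adjusted p = 0.000449), higher at 20 of 26 time points. IL6R was dim in PC9M2, well above background on 15 of 26 untreated and 18 of 26 gefitinib arrays. JAK1 rose by 0.39 (SE 0.099, adjusted p = 0.000909) in PC9 and by 0.43 (SE 0.10, adjusted p = 0.000453) in PC9M2, higher at 22 of 26 time points in each, and with time points 3 h apart neither call held (adjusted p = 0.107 and 0.0545). STAT3 mRNA differed by 0.15 in PC9 (95% interval -0.077 to 0.38) and by 0.077 in PC9M2 (95% interval -0.14 to 0.29), and its other probes gave values between 0.0032 and 0.20.

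BCL3 was the member that gefitinib raised most. It ranged from 11.52 to 12.89 with a median of 12.32 in untreated PC9 cells and from 12.08 to 13.98 with a median of 13.24 under gefitinib. In PC9M2 it ranged from 11.69 to 13.25 with a median of 12.29 without treatment and from 12.18 to 14.00 with a median of 13.66 under gefitinib. The ranges overlapped because of the first hours. BCL3 rose by 0.77 (SE 0.13, 1.70-fold, limma adjusted p = 3.87e-06) in PC9 and by 1.14 (SE 0.15, 2.20-fold, adjusted p = 1.17e-07) in PC9M2. Neighbouring time points were alike in these differences, and with the variance inflated for that likeness the adjusted p was 0.0528 in PC9 and 0.0698 in PC9M2.

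The falls were present on every scan day. The mean difference of OSMR, SOCS1, SOCS2 and SOCS3 was below 0 on each of 8 scan days in PC9 and each of 9 in PC9M2, and that of CISH in PC9M2 was below 0 on all 9. For SOCS3 the daily means lay between -2.74 and -1.50 in PC9 and between -2.66 and -1.70 in PC9M2.

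The gefitinib response changed with time. Among members called for this change, the mean changed sign for BCL3 and IL6ST in both lines and for CISH in PC9. From early to late IL6ST went from 0.056 to -0.62 in PC9 and from 0.17 to -0.39 in PC9M2. The early means of BCL3 and IL6ST were smaller than their SDs over time points. Time points were divided into an early window from 0 to 4 h (n = 6), a middle window from 5 to 12 h (n = 8) and a late window from 13 to 24 h (n = 12), and the late window was compared with the early one. In PC9 the late difference was higher than the early one for 2 members and lower for 3, where 26.5% and 25.9% of genes were called in those directions. In PC9M2 it was higher for 3 and lower for 5, where 19.9% and 19.3% of genes were called.

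CISH showed the widest swing in PC9. There the gefitinib difference was -0.86 ± 0.34 (SD, n = 6) in the early window, 0.10 ± 0.55 in the middle window (n = 8) and 1.03 ± 0.61 in the late window (n = 12), so that gefitinib-treated PC9 cells held less CISH mRNA than untreated cells at 6 of 6 early time points and more at 11 of 12 late ones. The late mean included an untreated array of 16 h at 5.15, and without that time point it was 0.90 ± 0.42, higher at 10 of 11 time points. In PC9M2 the values were -1.39 ± 0.45, -0.70 ± 0.49 and -0.52 ± 0.28, so that CISH stayed lower at 6 of 6, 8 of 8 and 11 of 12 time points. The change from early to late was 1.89 (SE 0.26, limma adjusted p = 1.02e-06) in PC9 and 0.86 (SE 0.19, adjusted p = 0.000814) in PC9M2.

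BCL3 turned within the first hours. In PC9 its gefitinib difference was -0.57 at 0 h, -0.73 at 0.5 h, -0.58 at 1 h and 0.18 at 3 h, and in PC9M2 it was -0.74, -0.65 and -0.80 at 0, 0.5 and 1 h and 0.60 at 2 h. The late window averaged 1.04 ± 0.25 in PC9 and 1.50 ± 0.19 in PC9M2 (n = 12 each), higher at every time point. The change from early to late was 1.27 (SE 0.18, limma adjusted p = 1.63e-06) in PC9 and 1.59 (SE 0.20, adjusted p = 6.49e-07) in PC9M2.

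OSMR fell progressively. Its difference was -0.86 ± 0.41 in the early, -2.06 ± 0.80 in the middle and -2.57 ± 0.33 in the late window in PC9, and -0.65 ± 0.24, -1.29 ± 0.35 and -1.81 ± 0.34 in PC9M2 (n = 6, 8 and 12). Late minus early was -1.72 (SE 0.26) in PC9 and -1.17 (SE 0.16) in PC9M2. SOCS3 deepened by less, with late minus early at -0.69 (SE 0.23, limma adjusted p = 0.0119) in PC9 and -0.54 (SE 0.17, adjusted p = 0.0114) in PC9M2.

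SOCS1 and SOCS2 differed in timing. At 0 h, with gefitinib already present, SOCS1 was lower by 2.38 in PC9 and by 3.00 in PC9M2, while SOCS2 was lower by 0.27 and by 0.13. In PC9M2 the SOCS1 difference then shrank from -2.58 ± 0.56 early to -1.52 ± 0.19 late (change 1.06, SE 0.16, limma adjusted p = 5.62e-06), and that of SOCS2 grew from -0.40 ± 0.30 to -1.59 ± 0.22 (change -1.19, SE 0.16, adjusted p = 9.09e-07). In PC9 neither change passed the test, at 0.027 (SE 0.20) for SOCS1 and -0.42 (SE 0.25) for SOCS2. The IL6ST difference moved down in PC9M2 by 0.56 (SE 0.17, adjusted p = 0.0092), and in PC9 by 0.68 (SE 0.28, adjusted p = 0.0466), a call that held in 6 of 12 other settings (adjusted p up to 0.137), and the IL6R difference in PC9M2 shrank from 1.11 ± 0.32 to 0.34 ± 0.47 (adjusted p = 0.0224).

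**Figure D3:**
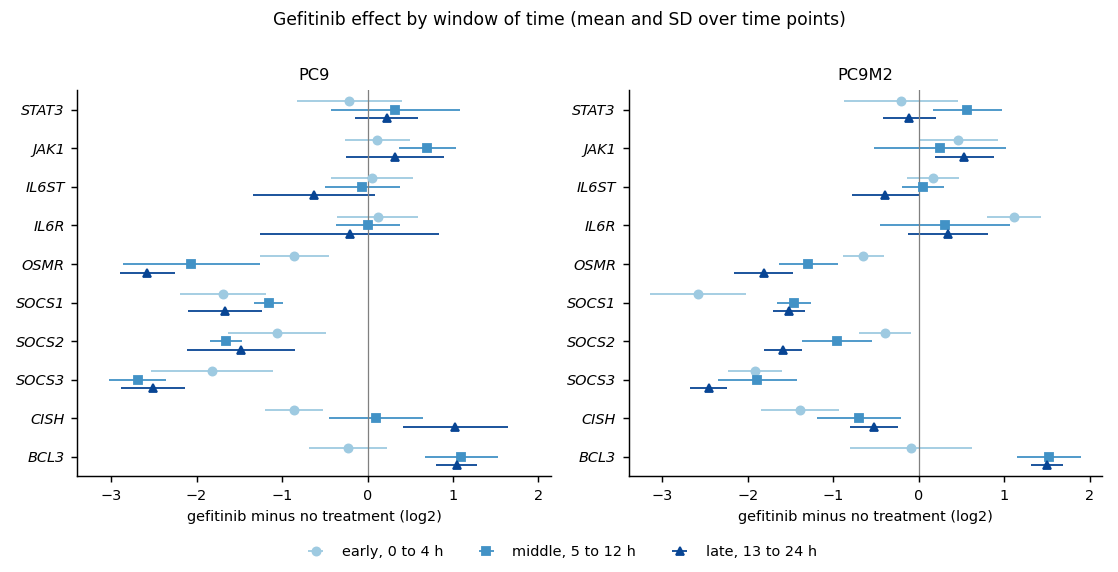
Gefitinib minus no treatment on the log2 scale in the early (0 to 4 h, n = 6), middle (5 to 12 h, n = 8) and late (13 to 24 h, n = 12) window, as the mean with the SD over time points, in PC9 (left) and PC9M2 (right). CISH moves from -0.86 to 1.03 in PC9 and stays below 0 in PC9M2, BCL3 moves above 0 in both lines, and OSMR moves further below 0 in both.

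EGF alone raised SOCS3, SOCS2 and CISH in both lines and SOCS1 in PC9. In PC9 cells EGF raised 6 members and lowered 1, where 11.3% of genes were called higher and 14.3% lower. In PC9M2 cells it raised 5 and lowered 1, where 4.09% of genes were higher and 5.04% were lower. Without the 2 arrays of 0.5 h that went against their labels it raised 6 and lowered 0, where 5.35% and 6.26% of genes were called. The median over the 10 genes was 0.43 in PC9 and 0.29 in PC9M2, and over all genes -0.013 and 0.00037.

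SOCS3 rose with EGF at 26 of 26 time points in PC9. With EGF its log2 intensity ran from 8.69 to 11.74 with a median of 10.69 in PC9, and from 8.89 to 11.47 with a median of 11.18 in PC9M2, where the lowest value was that of the 0.5 h array labelled EGF. The mean difference was 0.70 (SE 0.056, 1.62-fold, limma adjusted p = 1.52e-09) in PC9 and 0.40 (SE 0.096, 1.32-fold, adjusted p = 0.00678) in PC9M2, or 0.47 (SE 0.075) without the 2 arrays of 0.5 h. In PC9 the difference was 0.15 at 0 h, 0.55 at 0.5 h, 1.23 at 1 h, its highest, and 0.26 at 24 h. In PC9M2 it was 0.056 at 0 h, 1.07 at 1 h and 0.0020 at 24 h, and without the 2 arrays of 0.5 h the late window was lower than the early one by 0.70 (SE 0.14, adjusted p = 0.0113).

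CISH, SOCS2, OSMR and IL6R also rose with EGF in both lines. CISH rose by 0.55 (SE 0.091, limma adjusted p = 4.48e-05) in PC9 and by 0.82 (SE 0.10, adjusted p = 6.67e-06) in PC9M2, higher at 24 and 25 of 26 time points, and without the 2 arrays of 0.5 h by 0.90 (SE 0.068) in PC9M2. SOCS2 rose by 0.50 (SE 0.054, adjusted p = 1.03e-07) and by 0.74 (SE 0.086, adjusted p = 2.7e-06), higher at 24 of 26 in each. OSMR rose by 0.39 (SE 0.061) and by 0.36 (SE 0.080). IL6R rose by 0.47 (SE 0.14) and by 0.78 (SE 0.20), but with normexp background correction these were 0.12 (adjusted p = 0.0773) and 0.095 (adjusted p = 0.0114), and with variance inflated for autocorrelation both calls were lost (adjusted p = 0.0784 and 0.11). In PC9M2 the IL6R mean includes 13 h and 14 h, when the untreated arrays were at 1.96, a background level like the median of COL1A2 (1.97), and a difference there is not a measured one.

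SOCS1 rose with EGF in PC9 by 0.46 (SE 0.075, limma adjusted p = 2.97e-05). In PC9M2 its difference was 0.21 (SE 0.14, adjusted p = 0.393) with all arrays and 0.35 (SE 0.058, adjusted p = 0.000145) without the 2 arrays of 0.5 h. BCL3 moved opposite to the SOCS genes and fell with EGF by 0.25 (SE 0.054, adjusted p = 0.000711) in PC9 and by 0.19 (SE 0.060, adjusted p = 0.0427) in PC9M2, the latter losing its call without the 2 arrays (-0.17, adjusted p = 0.0604). STAT3, JAK1 and IL6ST passed the test in neither line, with differences between -0.24 and 0.088.

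Late minus early, the EGF difference rose in PC9 for 1 member, SOCS2, by 0.47 (SE 0.099, limma adjusted p = 0.00882), and fell for none, where 0.92% of genes were called higher and 1.13% were called lower. In PC9M2 none was called with all arrays, where 0.0603% of genes were higher and 0.332% were lower. There 2 members (STAT3 and CISH) had an unadjusted limma p under 0.05, a threshold at which all genes were not counted.

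In the presence of gefitinib none of the 10 genes passed the test for a response to EGF. By limma no member was called in PC9, where 0.0452% of genes were higher and 0% were lower, and none in PC9M2, where 1.07% and 2.14% were. At an unadjusted p under 0.05 there were 3 in PC9, STAT3, IL6R and SOCS2, and 0 in PC9M2. The share of all genes at that unadjusted threshold was not counted, so these counts have nothing to be compared with. None of the other settings run called any of the 10. The 95% interval of the difference ran from -0.27 to 0.056 for SOCS3, from -0.055 to 0.14 for SOCS1, from 0.0017 to 0.34 for SOCS2 and from -0.13 to 0.13 for CISH in PC9. In PC9M2 it ran from -0.13 to 0.31 for SOCS3 with all arrays. Without the 2 arrays of 0.5 h the SOCS3 difference in PC9M2 was -0.0089 (SE 0.048) and that of CISH -0.0030 (SE 0.043). SOCS3 with both agents ran from 6.36 to 8.62 with a median of 7.38 in PC9, close to the course with gefitinib alone. In PC9M2 its highest value with both agents, 11.19, was at the 0.5 h array that went against its label.

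The change of the EGF response by gefitinib was itself tested, as the EGF difference with gefitinib minus that without. In PC9 it was higher for 1 member and lower for 5, where 8.47% of genes were higher and 4.58% were lower. SOCS3 changed by -0.81 (SE 0.10, limma adjusted p = 7.51e-06, lower at 26 of 26 time points), CISH by -0.55 (SE 0.079), SOCS1 by -0.42 (SE 0.088), OSMR by -0.36 (SE 0.091) and SOCS2 by -0.33 (SE 0.10), and BCL3 by 0.22 (SE 0.060). In PC9M2 1 member was higher and 2 were lower, where 5.55% of genes were higher and 4.59% were lower, with CISH at -0.76 (SE 0.16, adjusted p = 0.00212), SOCS2 at -0.72 (SE 0.099, adjusted p = 3.6e-05) and BCL3 at 0.27 (SE 0.088, adjusted p = 0.05). Without the 2 arrays of 0.5 h 7 members were called in PC9M2, 2 higher and 5 lower. Calls were also more frequent over all genes then, at 8.63% higher and 7.35% lower. The lower members included SOCS3 at -0.48 (SE 0.089, limma adjusted p = 0.000424), SOCS1 at -0.34 (SE 0.070, adjusted p = 0.00121) and OSMR at -0.36 (SE 0.097, adjusted p = 0.0117). JAK1, at 0.40 (SE 0.12, adjusted p = 0.025), was among the higher ones.

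Without treatment, most of the 10 genes were lower in PC9M2 than in PC9 cells, and SOCS3 was higher. Of the members 1 was called higher and 7 lower, where 31.1% of genes were higher and 37% were lower. The median difference over the 10 genes was -0.95 and over all genes -0.050. All differences between lines carry the slides and scan days along with the line.

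OSMR and the dim IL6R had the lowest values relative to PC9. IL6R ranged from 3.55 to 7.98 with a median of 6.22 in untreated PC9 and from 1.96 to 6.61 with a median of 4.57 in untreated PC9M2, a difference of -1.78 (SE 0.22, limma adjusted p = 3.61e-08). Its probe was well above background on 15 of the 26 untreated PC9M2 arrays and as low as background at some, and the size depended on the background correction, at -0.34 with normexp. OSMR was lower by 1.80 (SE 0.17, adjusted p = 1.59e-10), at 26 of 26 time points. SOCS2 was lower by 1.20 (SE 0.11), SOCS1 by 1.01 (SE 0.11) and IL6ST by 0.90 (SE 0.14). The ranges of the lines overlapped for each of these genes.

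STAT3 was lower in PC9M2 by 1.05 (SE 0.17, 2.07-fold, limma adjusted p = 2.47e-06), with all 3 of its probes lower, the other 2 by 1.15 and 1.24 at 26 of 26 time points. Untreated PC9 ranged from 7.46 to 9.24 with a median of 8.40, and untreated PC9M2 from 5.92 to 8.25 with a median of 7.50. In PC9M2 the level stepped up between 9 h and 10 h in all 4 courses, from 6.44 to 8.25 without treatment, from 7.26 to 8.77 with gefitinib, from 6.51 to 8.37 with EGF and from 7.01 to 8.87 with both. The 4 arrays of a time point shared a slide, and the part of the slide in this step was not tested.

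SOCS3 was higher in PC9M2 by 0.64 (SE 0.10, limma adjusted p = 2.48e-06, higher at 24 of 26 time points) without treatment, by 0.89 (SE 0.11) with gefitinib, by 0.34 (SE 0.12) with EGF and by 1.09 (SE 0.14) with both. Without the 2 arrays of 0.5 h the last 2 were 0.37 (SE 0.12) and 0.99 (SE 0.11). The dimmer SOCS3 probe did not show this, with differences of -0.094, 0.14, -0.39 and 0.17 in the same order, so the direction between lines depends on the probe. CISH was lower in PC9M2 without treatment by 0.49 (SE 0.14, adjusted p = 0.0034), a call lost with scan day as a random block (-0.44, adjusted p = 0.116), and its dimmer probe was higher in PC9M2 by 0.24. JAK1 differed by -0.36 (95% interval -0.77 to 0.061), while its other, brighter probe was lower in PC9M2 by 0.72 (adjusted p = 3.5e-05). BCL3 differed by 0.051 (95% interval -0.17 to 0.27).

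Under treatment the picture between lines was alike for most members. With gefitinib 2 members were higher and 7 lower in PC9M2, where 30.7% of genes were higher and 34.3% were lower. With EGF 1 was higher and 8 were lower, where 32.8% and 37% of genes were called in those directions, and with both agents 2 were higher and 7 lower, where 31.5% and 36.2% were. CISH fell further behind under gefitinib, to -1.57 (SE 0.16, lower at 26 of 26 time points, limma adjusted p = 1.56e-09), and with both agents to -1.52 (SE 0.19). These were -0.54 in both with normexp background correction, and lost their calls with variance inflated for autocorrelation (adjusted p = 0.0535 and 0.0874). BCL3 was higher in PC9M2 by 0.43 (SE 0.098) with gefitinib and by 0.54 (SE 0.088) with both, calls lost with scan day as a random block (adjusted p = 0.169 and 0.0563). The CISH difference with EGF, -0.22 (adjusted p = 0.0444), lost its call without the 2 arrays of 0.5 h (-0.17, adjusted p = 0.0871).

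**Figure D4:**
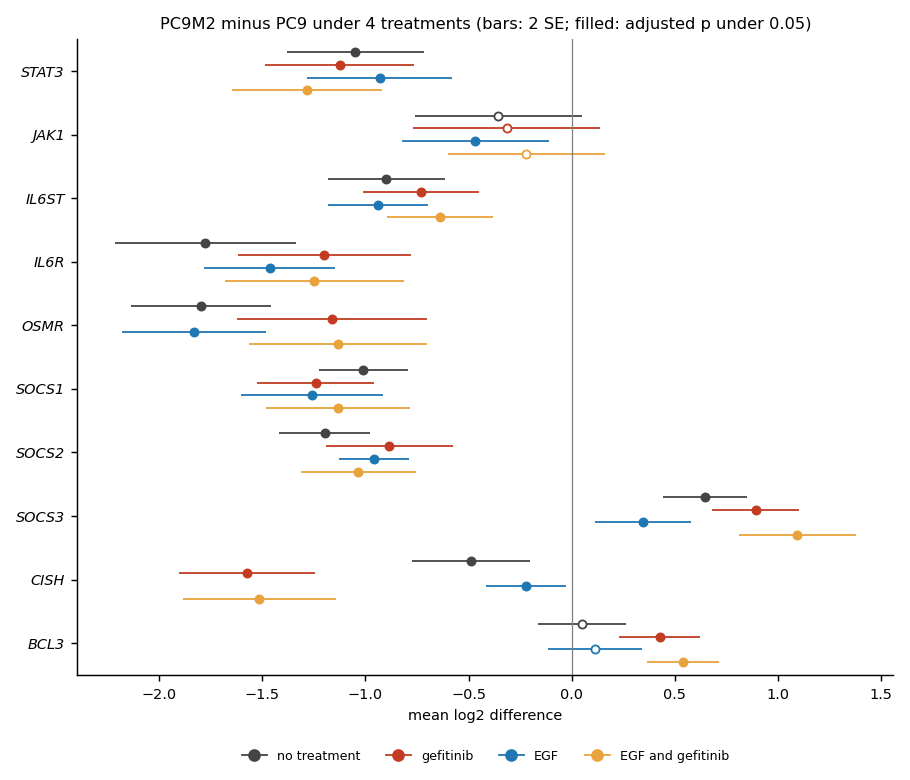
Mean log2 difference PC9M2 minus PC9 for the 10 genes in the 4 treatments, over 26 matched time points, with bars of 2 standard errors and filled symbols where the adjusted p was under 0.05. SOCS3 lies right of 0 in all 4 treatments with the probe used, OSMR and IL6R lie left of -1, and CISH lies near -1.5 in the 2 treatments with gefitinib and nearer 0 in the others.

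The difference between lines in the gefitinib effect was higher in PC9M2 for 3 members and lower for 1, where 17% and 16.9% of genes were called in those directions. CISH and OSMR are described above. BCL3 rose more in PC9M2, by 0.38 (SE 0.077, limma adjusted p = 0.00037, at 23 of 26 time points), and the IL6R difference was larger by 0.58 (SE 0.18, adjusted p = 0.013). SOCS3 differed by 0.25 (SE 0.12, adjusted p = 0.1), SOCS2 by 0.31 (SE 0.14, adjusted p = 0.0749) and SOCS1 by -0.23 (SE 0.11, adjusted p = 0.121), and the second SOCS1 probe gave 0.45. For the EGF effect no member differed between lines, where 0.558% of genes were higher and 0.777% were lower. At an unadjusted limma p under 0.05 there were 3 (SOCS2, SOCS3 and CISH), and all genes were not counted at that threshold. The SOCS3 EGF effect was smaller in PC9M2 by 0.30 (95% interval -0.51 to -0.094, adjusted p = 0.154), and without the untreated 11 h array by 0.35 (adjusted p = 0.0336).

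Several of the genes moved with time in untreated, starved cells. In an F-test over a spline of time, 8 members changed in untreated PC9, 9 with gefitinib, 7 with EGF and 9 with both, where 66.3%, 77.8%, 78.8% and 83.1% of genes did. In PC9M2 the counts were 8, 8, 9 and 7, where 67.2%, 63.7%, 74.9% and 67.7% of genes did. Without the untreated 11 h array the first count was 9, with JAK1 added (adjusted p = 0.000193), where 74.8% of genes changed. Without the 2 arrays of 0.5 h the last 2 counts were 8 and 8, where 74.2% and 65.8% of genes did. SOCS3 climbed without any treatment in PC9, from 8.53 at 0 h to 10.98 at 24 h (fitted range 2.56, limma adjusted p = 2.24e-08), and in PC9M2 from 10.10 to 11.29 (fitted range 1.28, adjusted p = 9.73e-05). Under gefitinib SOCS3 in PC9 reached its lowest at 6 h and its highest, 8.67, at 24 h, whereas in PC9M2 its fitted range was 0.38 (adjusted p = 0.398). SOCS1 went down over the same time in untreated PC9, from 10.83 to 9.36 (fitted range 1.48, adjusted p = 0.000182). IL6R fell in untreated PC9M2 from 6.15 at 0 h to 3.87 at 24 h (fitted range 3.01, adjusted p = 0.000595, or 3.45 without the 11 h array). It was at 1.96 at 13 h and 14 h, and the courses with gefitinib and with both agents were as low, at 1.94 and 1.92 at 13 h. The EGF course was at 4.69 at 13 h and had its own lowest value, 2.50, at 15 h.

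**Figure D5:**
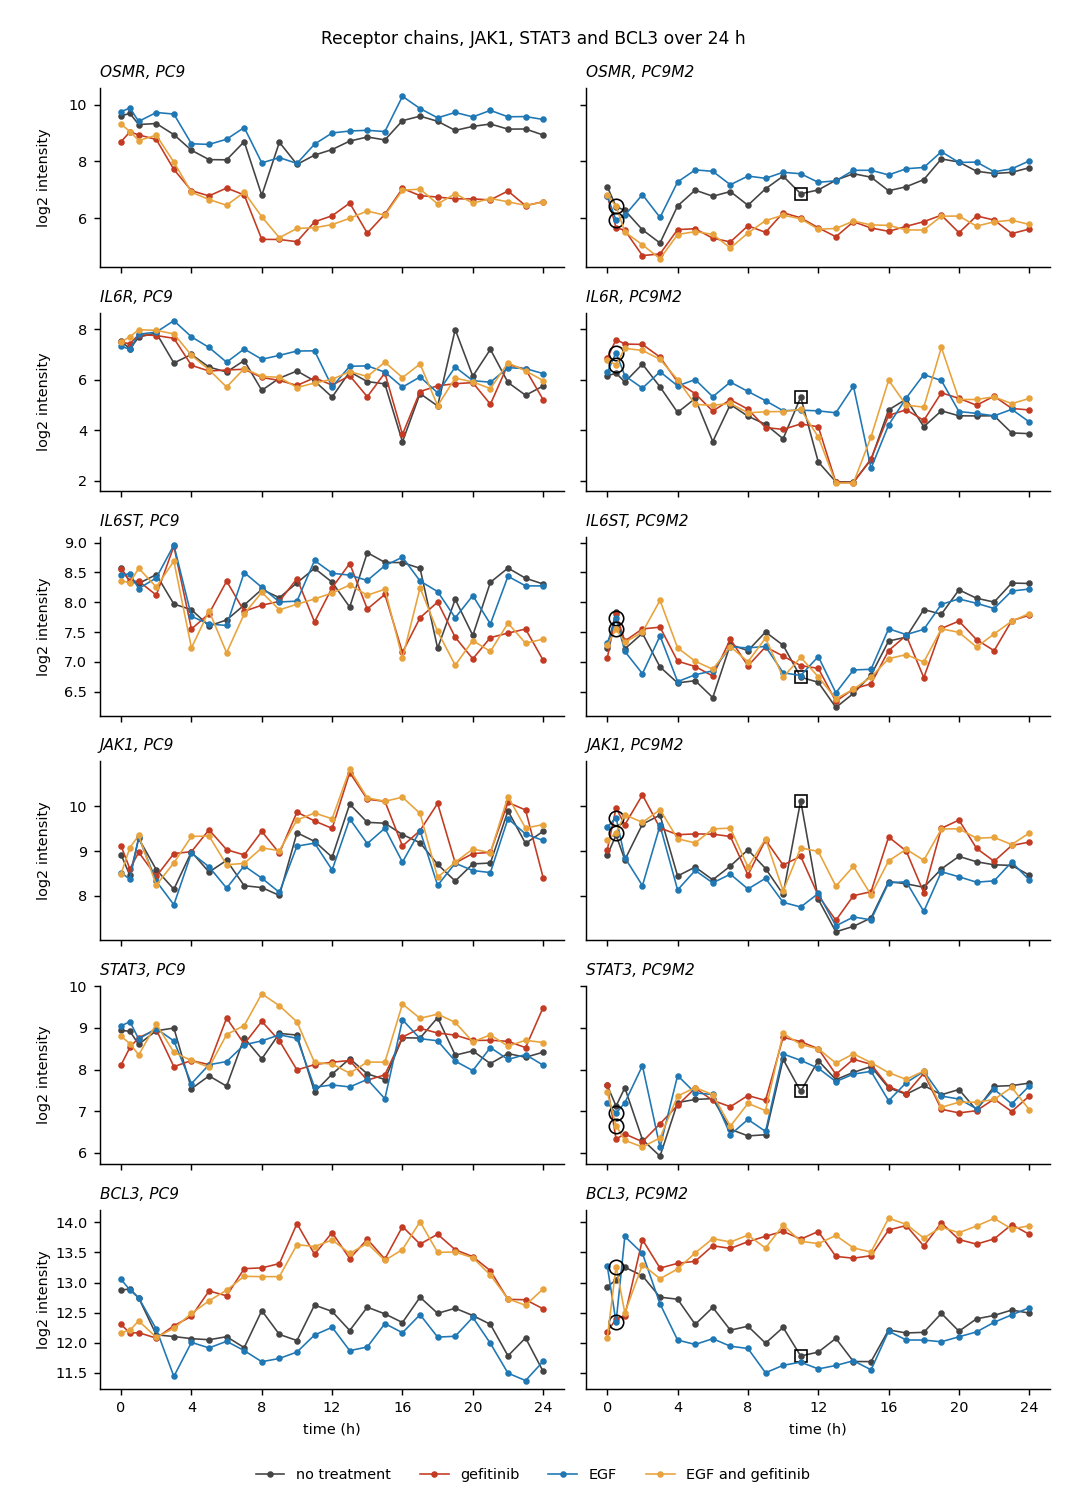
Log2 intensity of OSMR, IL6R, IL6ST, JAK1, STAT3 and BCL3 against time in hours, with 1 point per array and 1 colour per treatment, PC9 on the left and PC9M2 on the right. Circles mark the 2 PC9M2 arrays of 0.5 h that went against their labels and the square marks the untreated PC9M2 array of 11 h. The OSMR courses with gefitinib part from the others within the first hours, the BCL3 courses with gefitinib rise above them, and JAK1 has its highest untreated PC9M2 value, 10.12, at the marked 11 h array.

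Of 6 tested ligands of the interleukin 6 family, gefitinib raised 1 and lowered 5 in PC9 and raised 1 and lowered 4 in PC9M2, where 35.1% and 37.2% of all genes were called higher and lower in PC9 and 32.6% and 34.2% in PC9M2, with medians of -1.22 and -0.54 against -0.021 and -0.0076 over all genes. OSM, the ligand of OSMR, fell in PC9 by 2.23 (SE 0.21) and in PC9M2 by 0.57 (SE 0.097), where it was well above background on 18 untreated and 9 gefitinib arrays. CLCF1, a ligand of the CNTF receptor, fell by 1.24 and by 0.52, and IL11, which signals through gp130, by 1.20 and by 0.59. CTF1, also called cardiotrophin 1, rose by 0.73 and by 0.49, and IL6 fell in PC9 by 0.94 and differed by -0.049 in PC9M2 (limma adjusted p = 0.684), both chosen after their values were seen. The gefitinib effect differed between the lines for 5 of the 6, all with the higher value in PC9M2, where 17% of all genes were called higher and 16.9% lower. Without treatment 0 of the 6 were higher and 5 lower in PC9M2 than in PC9, with a median of -0.67, beside 31.1% and 37% of all genes. With gefitinib 1 was higher and 1 lower, with a median of -0.080, beside 30.7% and 34.3%.

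Other receptors that signal through JAK kinases moved both ways. Of 9 tested, 3 rose and 4 fell with gefitinib in PC9, and 4 rose and 2 fell in PC9M2, close to the shares of all genes in PC9 (35.1% and 37.2%) and beside 32.6% and 34.2% in PC9M2. IL4R fell by 1.19 in PC9 and by 0.47 in PC9M2, IL27RA fell by 0.87 and by 0.45, and IL10RB, a shared chain of interleukin 10 family receptors, rose by 0.58 and by 0.39. Of 8 other JAK and STAT genes 4 rose and 2 fell in PC9, and 4 rose and 1 fell in PC9M2, beside the same shares. STAT2 rose by 0.72 in PC9 and by 0.80 in PC9M2, while STAT5A rose in PC9 by 0.90 (SE 0.13) and was well above background on few PC9M2 arrays, 3 without treatment and 5 with gefitinib.

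Of 14 other negative regulators, gefitinib raised 4 and lowered 8 in each line, beside 35.1% and 37.2% of all genes in PC9 and 32.6% and 34.2% in PC9M2. SH2B3, also known as LNK, an adaptor that restrains JAK2, fell by 2.61 (SE 0.21) in PC9 and by 1.16 (SE 0.087) in PC9M2. USP18, which restrains interferon receptor signaling, fell by 1.91 and by 1.37, and PIAS3, an inhibitor of STAT3, rose by 1.33 and by 0.79. Of 21 tested genes known as STAT3 targets, 3 rose and 15 fell in PC9 and 5 rose and 6 fell in PC9M2, beside the same shares, with medians of -0.46 and 0.00066. The gefitinib effect on these differed between the lines for 13 with the higher value in PC9M2 and for 2 with the lower, beside 17% and 16.9% of all genes. Without treatment 3 of the 21 were higher in PC9M2 than in PC9 and 12 were lower, beside 31.1% and 37% of all genes. FOS was among the lower ones, at -1.85. FOS fell by 2.82 (SE 0.12) in PC9, against -0.27 (SE 0.24, limma adjusted p = 0.337) in PC9M2, CCND1, which encodes cyclin D1, fell by 1.80 and by 0.77, and MUC1, a transmembrane mucin, rose by 2.19 and by 1.57. Many of these genes also respond to other signals downstream of EGFR.

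Across all arrays of each line, the genes whose log2 courses were most like those of the members were found by the mean of the 2 Pearson correlations, given here as a description, since arrays of 1 line share treatments, times and slides. The closest to OSMR was SH2B3 (0.94), followed by HBEGF (0.91), and the closest to SOCS3 was YRDC (0.93), followed by TMEM88 (0.91). SOCS1 was most like DUSP4 (0.91) and HS3ST1 (0.90), SOCS2 most like ADAMTS16 (0.90) and ADAM19 (0.90), and BCL3 most like IQCK (0.89) and CFAP184 (0.89). CISH had no close partner, with C8orf58 (0.67) and HSD11B2 (0.65) nearest. For STAT3 these were NCOA4 (0.80) and MTFR1L (0.76), for JAK1 SCARNA17 (0.82) and ATF7IP (0.81), for IL6ST PRKCI (0.81) and ATP10D (0.80), and for IL6R ATXN7L2 (0.71) and SLC7A5 (0.69). Among the members, SOCS2 and SOCS3 ran together in both lines (0.87 in PC9 and 0.80 in PC9M2) and BCL3 ran opposite to SOCS2 (-0.81 and -0.83). SOCS1 and CISH ran together in PC9M2 (0.89) and apart in PC9 (-0.055).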

How the data were processed

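Total RNA from PC9 and PC9M2 cells was measured on 208 one-colour arrays. Per the file headers, the deposited intensity values (processed signals) came from Feature Extraction 10.5.1.1, which subtracts local background and removes spatial trend; the study's methods name another version of that software. No array had a replicate, and the number of arrays limits the precision. Samples were grouped by line, treatment and time point from the labels.

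The deposited intensities of all arrays were quantile normalized together, as the study's methods state, raised to a floor of 1 and taken to log2. Outlier spots were then dropped (0.0793% of tested values), and the log2 values of a probe's spots were averaged. Probes were named through RefSeq accessions (24794 of 41000 matched 1 gene, 16206 did not). The probe with the largest variance stood for a gene, as in the study's methods, and other probes are given where they disagree. Genes were tested if well above background on at least 13 of 26 arrays of 1 course, which kept 13263 and left out 3698.

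Differences at 26 matched time points were tested with limma 3.58.1 (R 4.3.3, lmFit and eBayes, two-sided, Benjamini-Hochberg adjustment over all 13263 genes, threshold 0.05), as a moderated form of the paired test over time points in the study's methods. Windows were compared in the same way, and change within a course by an F-test on a natural spline with 4 degrees of freedom. Scripts were tested on simulated data. The 10 genes, the pathway and marker lists (epithelial, lung, leukocyte, endothelial and fibroblast) and the tests were chosen with earlier results of these data known. The text names every member, at most 3 genes per pathway list, namely those called under gefitinib with the largest change and measured in at least 13 of 26 arrays per course compared in either line, and the 2 genes most like each member, and 2 genes that these rules cover are not reported here.

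Alternatives were normexp background correction (offset 50, on the median signals, since the mean signals planned for it were not used here), scaling to the 75th percentile, the deposited table of normalized intensities, a floor of 16, other filters, other probes, outlying points replaced by a spline, unpaired courses, the methods' t-test, a one-sided test, time points 3 h apart, variance inflated for autocorrelation, no 0 h, a spline with 6 degrees of freedom, scan day as a random block, and leaving out doubtful arrays. Scan day as a block for differences and the settings that leave out arrays were chosen after seeing the data.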

Additional observations from a re-analysis of the deposited data

Results flagged for a closer look

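In 9 cases the EGF effect differed with and without gefitinib by limma's test of that difference. In PC9 these were SOCS3 (-0.81, adjusted p = 7.51e-06), CISH (-0.55, adjusted p = 3.55e-05), SOCS1 (-0.42, adjusted p = 0.00168), OSMR (-0.36, adjusted p = 0.00777) and SOCS2 (-0.33, adjusted p = 0.0331), each with less EGF effect in the presence of gefitinib, and BCL3 (0.22, adjusted p = 0.0156), whose fall with EGF was absent there. In PC9M2 these were CISH (-0.76, adjusted p = 0.00212), SOCS2 (-0.72, adjusted p = 3.6e-05) and BCL3 (0.27, adjusted p = 0.05), the last called in 9 of 18 other settings (adjusted p up to 1.0).

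In 4 cases the gefitinib effect differed between PC9M2 and PC9 by the same test: CISH (-1.09, adjusted p = 1.46e-06), OSMR (0.64, adjusted p = 0.00026), BCL3 (0.38, adjusted p = 0.00037) and IL6R (0.58, adjusted p = 0.013). With normexp background correction IL6R was 0.13 (adjusted p = 0.0503), and with variance inflated for autocorrelation OSMR had an adjusted p of 0.0547. Line, slide and scan day cannot be told apart for the levels, while each gefitinib difference was taken within a slide.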

How the results depend on the processing

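Of 3851 values of the 10 genes under 20 other settings, 3638 kept their direction and their side of the threshold, 61 passed only under the other setting, 150 passed only under the one used, and 2 reversed: SOCS3 in PC9M2 minus PC9 with EGF was -0.024 (adjusted p = 0.896) with the mean of all probes, and STAT3 late minus early under gefitinib in PC9M2 was -0.47 (adjusted p = 0.0306) with the probe of highest mean. The cause was not tested. Another 75 changed sign while passing under neither. Normexp with an offset of 50 made changes of dim genes smaller, such as the fall of OSMR in PC9 (-0.96), of SOCS2 in PC9 (-0.60) and of CISH in PC9M2 (-0.23).

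The counts of members called moved as follows. With no replicate block, that is with unpaired courses, they were 4 for EGF in PC9 (7 when paired), 2 for EGF in PC9M2 (6), 0 for the change of the EGF effect by gefitinib in PC9 (6) and 0 in PC9M2 (3), 1 for the gefitinib effect between lines (4) and 0 for the late minus early EGF effect in PC9 (1). With time points 3 h apart they were 3, 1 and 0 for the first 2 and the change in PC9, and 2 between lines. With variance inflated for autocorrelation they were 2 for EGF in PC9M2 and 1 for the change there. That change in PC9M2 had 5 members called with the mean of all probes and 6 with outlying points replaced by a spline. It had 6 without the 29 arrays with a quality metric out of range. Without the 2 arrays against their labels it had 7, where 8.63% of genes were higher and 7.35% were lower. A one-sided test for higher in PC9M2 called 1 member without treatment, 2 with gefitinib, 1 with EGF and 2 with both. The EGF effect between lines had 1 with the spline and 1 without the untreated 11 h array (0 otherwise). Without that array 0.724% of genes were higher and 0.942% were lower. The late minus early EGF effect had 0 in PC9 with the probe of highest mean. In PC9M2 it had 1 without the 2 arrays, where 0.385% of genes were higher and 0.927% were lower. With scan day as a random block, 5 members changed over time with gefitinib in PC9M2 (8) and 3 with EGF (9). Over all genes the EGF effect was called for 3395 in PC9 and 1211 in PC9M2, and for 400 and 89 when unpaired. For the other settings in this paragraph without a number or share of all genes, the calls over the array are not given. Those member counts alone do not tell a move of the members from a move of the whole array.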

Other observations

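Of 10 tested interferon-induced genes, 6 rose and 0 fell with gefitinib in each line, where 35.1% and 37.2% of all genes were called higher and lower in PC9 and 32.6% and 34.2% in PC9M2, and 4 in each did not pass the test, with medians of 0.49 in PC9 and 0.53 in PC9M2. IFI6 rose by 1.71 (SE 0.16) in PC9 and by 0.70 (SE 0.10) in PC9M2, MX1, an antiviral GTPase, by 0.29 (SE 0.085) and by 0.93 (SE 0.077), and IFIT2 by 0.94 (SE 0.20) and by 0.59 (SE 0.22). In PC9M2 IFIT2 was dim, well above background on 5 untreated and 16 gefitinib arrays, so the size of its rise there is uncertain. EGF lowered 7 of the 10 in PC9 and 4 in PC9M2, beside 14.3% and 5.04% of all genes. Without treatment all 10 were lower in PC9M2 than in PC9, with a median of -1.39, beside 37% of all genes, a difference that cannot be told apart from slide and scan day. USP18, itself induced by interferon, moved opposite to this list under gefitinib, falling by 1.91 and by 1.37.

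Of 7 tested NF-κB subunits and feedback genes related to BCL3, gefitinib raised 0 and lowered 6 in PC9, and raised 2 and lowered 4 in PC9M2, beside 35.1% and 37.2% of all genes in PC9 and 32.6% and 34.2% in PC9M2, while BCL3 rose in both. TNFAIP3, a feedback inhibitor of NF-κB signaling, fell by 1.83 (SE 0.15) in PC9 and by 1.57 (SE 0.18) in PC9M2, RELB by 0.70 and by 1.00, and NFKBIE, an inhibitor of the IκB family, by 0.61 and by 0.72.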
